A study of Mus musculus with 4 samples.

Results

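The Schlafen and IFITM genes measured here are 10 of the 18820 genes with a probe set of their own on the array, namely Slfn1, Slfn2, Slfn3, Slfn4, Slfn5 and Slfn8 of the Schlafen family and Ifitm1, Ifitm2, Ifitm3 and Ifitm6 of the interferon-induced transmembrane (IFITM) family. A gene was taken from probe sets whose annotation names it and no other gene, and where several did so, from the one with the highest mean over the 4 arrays. The genes were chosen by family with their values on these 4 arrays in view, so every value below is a description of these arrays and no test is given. All 10 members passed a filter that kept the 14115 genes at or above the 25th percentile of mean signal.

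RNA came from the inferior vena cava, the large vein that drains the lower body, of wild-type C57BL/6J mice and of CD39 knockout mice (Cd39-null, lacking the ATP- and ADP-degrading enzyme encoded by Entpd1) on the same background. Mice of either genotype came from no fewer than 8 generations of breeding into C57BL/6J, were male or female, and were 8 to 10 weeks old. The vein was either ligated below the renal veins for 48 h to bring on a stasis thrombus, or exposed and dissected without ligation (sham), and all 4 groups had abdominal surgery. For each group the RNA of 4 mice was pooled and run on 1 array, which leaves a difference between arrays without a replicate check. Neither the sex of each pool, nor whether the ligation was complete or partial, nor whether the clot went into the RNA is given in the labels. Values are log2 units of signal on a whole-transcript Affymetrix array, so a difference of 1 is a 2-fold difference, and the probe sets' own brightness does not allow levels of different genes to be compared. Precision is limited by there being 4 arrays in all.

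As a gauge of background, the 95th percentile of 1006 olfactory receptor probe sets lay between 2.66 and 2.97 on the 4 arrays. The vein's own markers were present, since all 13 endothelial markers were above that background on every array, and all 9 smooth muscle markers were so on 3 arrays, while 2 of them lay at or under it on the ligated array labelled Cd39-null. The targeted gene Entpd1 read 4.16 in sham Cd39-null, but 6.14 on that last array, next to 6.17 in ligated wild type and 7.11 in sham wild type. Its level on the ligated array labelled Cd39-null is thus not that of sham Cd39-null and goes against the label, and the position of the probe set relative to the deletion is not known here. In these pieces of whole vein, a change in the number of cells of a type and a change in RNA per cell cannot be told apart.

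Schlafen proteins share a core fold, and several members bind or cut transfer RNA. The cutting can restrain protein synthesis and viral growth. Mouse members come in short forms (Slfn1, Slfn2), intermediate forms (Slfn3, Slfn4) and long forms with an added helicase-like part (Slfn5, Slfn8), and many of them are high in lymphocytes or myeloid cells and inducible by interferon. IFITM proteins are small membrane proteins that hinder the fusion of enveloped viruses with the cell, Ifitm3 mainly in endosomes and Ifitm1 nearer the cell surface. Interferons act through 2 classes of promoter element, the interferon-stimulated response element and the gamma-activated site.

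The promoters of the 4 members with a match to one of these elements, and of Slfn1 and Slfn4, are shown as the 250 bases before the gene's start from the RefSeq table of build GRCm38.p6, read on the gene's own strand. All 10 members had an entry, with 11 windows in all, since Slfn8 had a further start whose window is not shown. Capitals mark the core of the interferon-stimulated response element, spelled GAAA, any 2 bases, GAAA, or the gamma-activated site, spelled TTC, any 3 bases, GAA, both searched on both strands. The windows are chr11:83116570-83116819 for Slfn1, chr11:83174936-83175185 for Slfn4 and chr11:82951852-82952101 for Slfn5, all on the plus strand, and chr11:83020811-83021060 for Slfn8, chr7:140955962-140956211 for Ifitm2 and chr7:141016893-141017142 for Ifitm6, all on the minus strand.
Slfn1: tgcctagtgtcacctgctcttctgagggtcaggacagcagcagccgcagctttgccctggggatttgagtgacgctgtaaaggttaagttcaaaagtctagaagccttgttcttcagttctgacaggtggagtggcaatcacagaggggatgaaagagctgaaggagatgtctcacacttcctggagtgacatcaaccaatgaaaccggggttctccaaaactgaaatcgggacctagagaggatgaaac
Slfn4: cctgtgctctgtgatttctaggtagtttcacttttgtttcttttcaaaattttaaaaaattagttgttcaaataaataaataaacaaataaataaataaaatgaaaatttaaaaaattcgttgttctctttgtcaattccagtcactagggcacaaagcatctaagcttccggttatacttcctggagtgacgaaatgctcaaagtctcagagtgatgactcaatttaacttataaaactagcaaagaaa
Slfn5: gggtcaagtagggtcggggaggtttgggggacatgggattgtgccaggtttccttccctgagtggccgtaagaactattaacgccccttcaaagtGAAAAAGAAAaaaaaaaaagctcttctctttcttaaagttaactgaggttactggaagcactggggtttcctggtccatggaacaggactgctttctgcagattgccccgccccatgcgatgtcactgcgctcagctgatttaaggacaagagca
Slfn8: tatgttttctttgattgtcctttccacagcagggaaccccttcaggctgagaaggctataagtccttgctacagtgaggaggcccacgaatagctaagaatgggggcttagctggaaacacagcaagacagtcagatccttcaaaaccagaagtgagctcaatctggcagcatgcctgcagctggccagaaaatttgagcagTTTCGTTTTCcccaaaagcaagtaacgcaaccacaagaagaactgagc
Ifitm2: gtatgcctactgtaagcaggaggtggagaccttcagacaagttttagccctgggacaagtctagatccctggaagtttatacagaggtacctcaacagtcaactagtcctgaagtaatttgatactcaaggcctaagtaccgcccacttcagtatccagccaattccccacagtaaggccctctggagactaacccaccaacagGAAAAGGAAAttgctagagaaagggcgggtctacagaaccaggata
Ifitm6: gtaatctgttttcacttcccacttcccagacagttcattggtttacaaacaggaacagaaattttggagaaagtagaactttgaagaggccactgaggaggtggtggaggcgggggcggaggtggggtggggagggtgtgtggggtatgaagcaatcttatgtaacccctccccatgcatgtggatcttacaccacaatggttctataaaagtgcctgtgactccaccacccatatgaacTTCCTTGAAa
The response element core stood before 3 of the 10 members. In Slfn5 its first base stood 155 bases before the start, and in Ifitm2 46 bases. In Slfn8 it read on the strand opposite to the gene, its first printed base 48 bases before the start. From the other listed start of Slfn8 the same match stood 136 bases away. The gamma-activated site stood only before Ifitm6 among the members, its first base 10 bases before the start. Over all 32851 promoter windows of this length in the table, 2.98% held the first motif and 7.02% the second. Slfn1 and Slfn4 are shown as the Schlafen members with the widest ranges over the arrays, and these letters are not in their windows. A match is a string of letters and not a binding measurement.

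**Figure D1:**
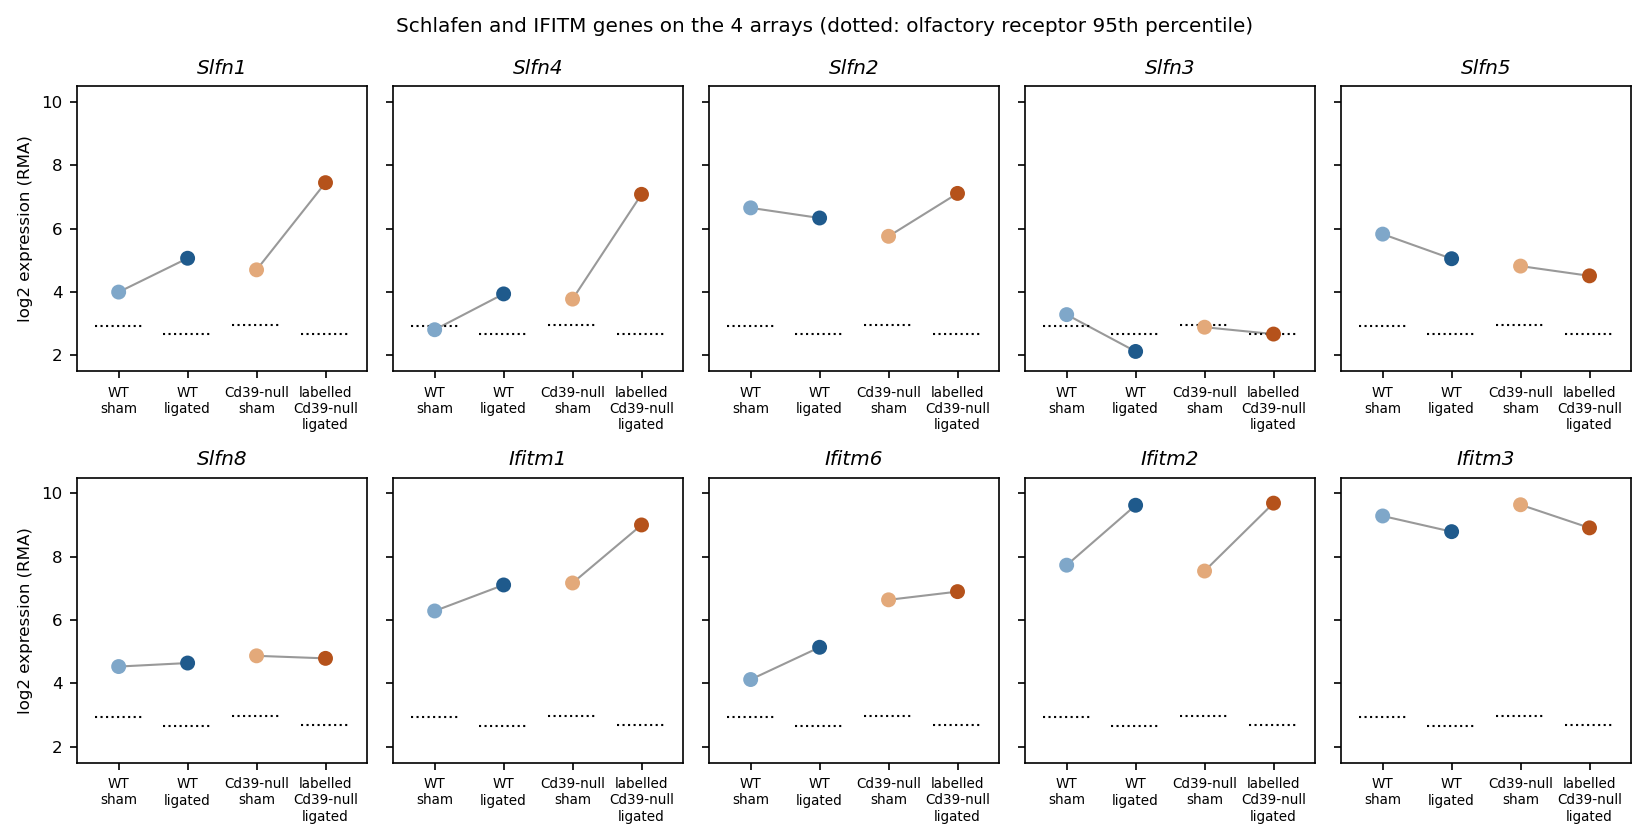
Log2 signal (vertical axis) of each of the 10 members on the 4 arrays (horizontal axis), 1 point an array of pooled RNA, with lines joining sham and ligated arrays of a genotype label and dotted lines at the olfactory receptor 95th percentile of each array. Slfn1, Slfn4 and Ifitm1 are highest on the ligated array labelled Cd39-null, Ifitm6 is high on both arrays labelled Cd39-null, and Ifitm2 is high on both ligated arrays.

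Among the short Schlafen genes, Slfn1, whose product slows the growth of developing T cells when overproduced, read 4.00 in sham wild type, 5.06 in ligated wild type, 4.70 in sham Cd39-null, and 7.45 on the ligated array labelled Cd39-null. It was higher after ligation under both labels, and the last array stood well above the other three. The ligation difference was 1.07 in wild type (2.10-fold) and 2.75 in the pair labelled Cd39-null (6.73-fold, rank 116 from the highest of 14115 genes). In wild type it lay between 0.96 and 0.98 once the arrays were quantile normalised, loess normalised or centred, so whether it passes 2-fold there depends on the scaling.

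Slfn2, needed to keep T cells and monocytes quiescent, read 6.65 in sham wild type, 6.33 in ligated wild type, 5.76 in sham Cd39-null, and 7.11 on the ligated array labelled Cd39-null. Its order over the arrays differed from that of Slfn1, since the 2 genotype labels went opposite ways. The ligation difference was -0.32 in wild type and 1.35 in the pair labelled Cd39-null, where it was 2.56-fold. Against sham wild type, the same ligated array was 0.46 higher.

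Of the intermediate forms, Slfn4, a gene of myeloid cells that falls as macrophages mature, read 2.81 in sham wild type, 3.94 in ligated wild type, 3.78 in sham Cd39-null, and 7.08 on the ligated array labelled Cd39-null. It had the widest range of all members (4.27), and its wild-type sham value was at the level of the olfactory receptors. The ligation difference was 1.13 in wild type and 3.31 in the pair labelled Cd39-null (9.89-fold, rank 59 from the highest). With the dim sham value raised to its array's olfactory background, the wild-type difference was 1.00 (2.00-fold), or 0.9985 before rounding, just under the 2-fold mark.

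Slfn3, the neighbour of Slfn4 on chromosome 11 in RefSeq's GRCm38.p6 and linked to T cell activation and gut cell differentiation, did not share that pattern. It read 3.29 in sham wild type, 2.12 in ligated wild type, 2.89 in sham Cd39-null, and 2.67 on the ligated array labelled Cd39-null. Only the wild-type sham value was above the olfactory background. The wild-type ligation difference of -1.16 became -0.62 with values raised to that background, so no size can be read from it.

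Of the long forms, Slfn5, a nuclear member that represses transcription of some interferon-induced genes, read 5.83 in sham wild type, 5.05 in ligated wild type, 4.82 in sham Cd39-null, and 4.51 on the ligated array labelled Cd39-null. It was highest in sham wild type, and lowest on the array where Slfn1 and Slfn4 were highest. The ligation difference was -0.78 in wild type and -0.31 in the pair labelled Cd39-null. Slfn8, a long form able to cut transfer RNA, read 4.53, 4.65, 4.87 and 4.79 in the same order of arrays, a range of 0.34 that was the narrowest of the 10.

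Of the IFITM genes, Ifitm1 read 6.29 in sham wild type, 7.11 in ligated wild type, 7.17 in sham Cd39-null, and 9.0025 on the ligated array labelled Cd39-null. Its shape resembled that of Slfn1, with a modest step in wild type and a larger one in the pair labelled Cd39-null. The ligation difference was 0.82 (1.77-fold) in wild type and 1.83 (3.56-fold) in the pair labelled Cd39-null. A second probe set of Ifitm1 read 5.68, 6.36, 7.27 and 8.65 on the arrays as listed, so it ranked them alike.

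Ifitm2 read 7.73 in sham wild type, 9.62 in ligated wild type, 7.55 in sham Cd39-null, and 9.69 on the ligated array labelled Cd39-null. Both ligated arrays stood above both sham arrays, and arrays of the same surgery lay close together. The ligation difference was 1.89 (3.71-fold) in wild type and 2.14 (4.41-fold) in the pair labelled Cd39-null. The other 2 probe sets annotated to Ifitm2 were higher after ligation too, but by 0.92 and 0.79 in wild type and by 0.78 and 0.43 in the pair labelled Cd39-null, each of them under 2-fold. IFITM genes resemble each other closely in sequence, and the annotation does not say which probe set reads Ifitm2 alone.

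Ifitm3, the member best known for blocking influenza virus entry, read 9.29 in sham wild type, 8.79 in ligated wild type, 9.64 in sham Cd39-null, and 8.91 on the ligated array labelled Cd39-null. It was lower on both ligated arrays, with ligation differences of -0.49 and -0.73, opposite in direction to Ifitm2. Ifitm6, a member of the same cluster that is found in myeloid cells, read 4.12 in sham wild type, 5.14 in ligated wild type, 6.64 in sham Cd39-null, and 6.90 on the ligated array labelled Cd39-null. Both arrays labelled Cd39-null were above both wild-type arrays. Its ligation difference was 1.02 in wild type, between 0.91 and 0.93 under the other scalings, and 0.26 in the pair labelled Cd39-null.

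**Figure D2:**
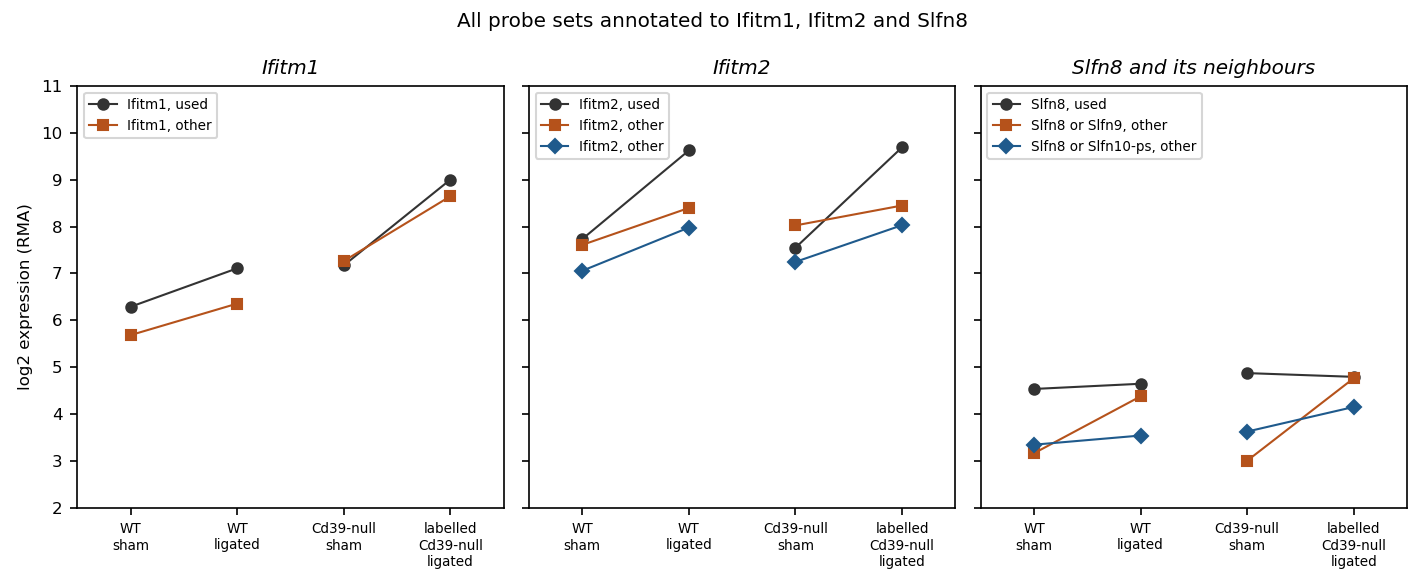
Log2 signal (vertical axis) of every probe set annotated to Ifitm1, to Ifitm2, or to Slfn8 alone or with a neighbour, on the 4 arrays (horizontal axis), with the probe set used for the gene in black. The 2 Ifitm1 probe sets rank the arrays alike but cross in sham Cd39-null (7.17 used, 7.27 other). The used Ifitm2 probe set has a larger step after ligation than the other 2. The probe set shared by Slfn8 and Slfn9 is higher after ligation under both labels, while that of Slfn8 alone is not.

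The first comparison, ligated against sham vein in wild type, addressed the gene response to stasis. Of the 10 members, 4 were at least 2-fold higher (Slfn1, Slfn4, Ifitm2 and Ifitm6), against 6.60% of all 14115 genes, and 1 was at least 2-fold lower (Slfn3), against 3.63%. Of the 4 higher members, 2 kept this mark under each of the 3 other scalings (Slfn4 and Ifitm2), and 3 kept it with values raised to the olfactory background (Slfn1, Ifitm2 and Ifitm6). The members' median difference was 0.47 and that of all genes -0.01. By family the medians were -0.10 for the 6 Schlafen genes and 0.92 for the 4 IFITM genes.

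In the second comparison, which set the ligated array labelled Cd39-null against its sham counterpart, 5 members were at least 2-fold higher (Slfn1, Slfn2, Slfn4, Ifitm1 and Ifitm2), against 10.9% of all genes, and 0 were at least 2-fold lower, against 5.80%. The members' median was 0.81 and that of all genes 0.03. All 5 kept the mark under the 3 other scalings and with values raised to the background. The split over all genes was less stable, since 65.3% of genes at least 2-fold apart were on the higher side as deposited and 51.5% to 53.9% under the other scalings. In wild type this share was 64.5% as deposited and 53.5% to 59.5% under the other scalings. It was lowest with each array centred on its median over the genes kept.

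At least 2-fold higher in both ligation comparisons, which share no array, were Slfn1, Slfn4 and Ifitm2, against 3.63% of all genes, and 0 members were lower in both, against 1.45%. The 3 genes came from both families, and Ifitm2 is among them only with the brightest of its 3 probe sets or their mean. In wild type Slfn1 fell short of 2-fold under the 3 other scalings (0.955 to 0.975). Slfn4 fell just short there with values raised to the olfactory background (0.9985). Ifitm2 had nearly the same step under both labels, with a difference of the ligation differences of 0.25, whereas the steps of Slfn1 and Slfn4 differed by 1.68 and 2.18. Slfn2, at 1.67, and Ifitm1, at 1.01, also had the larger value in the pair labelled Cd39-null, and Ifitm6, at -0.76, the smaller one. Whether these differences exceed the spread between pools was not tested, since each pool was run once.

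**Figure D3:**
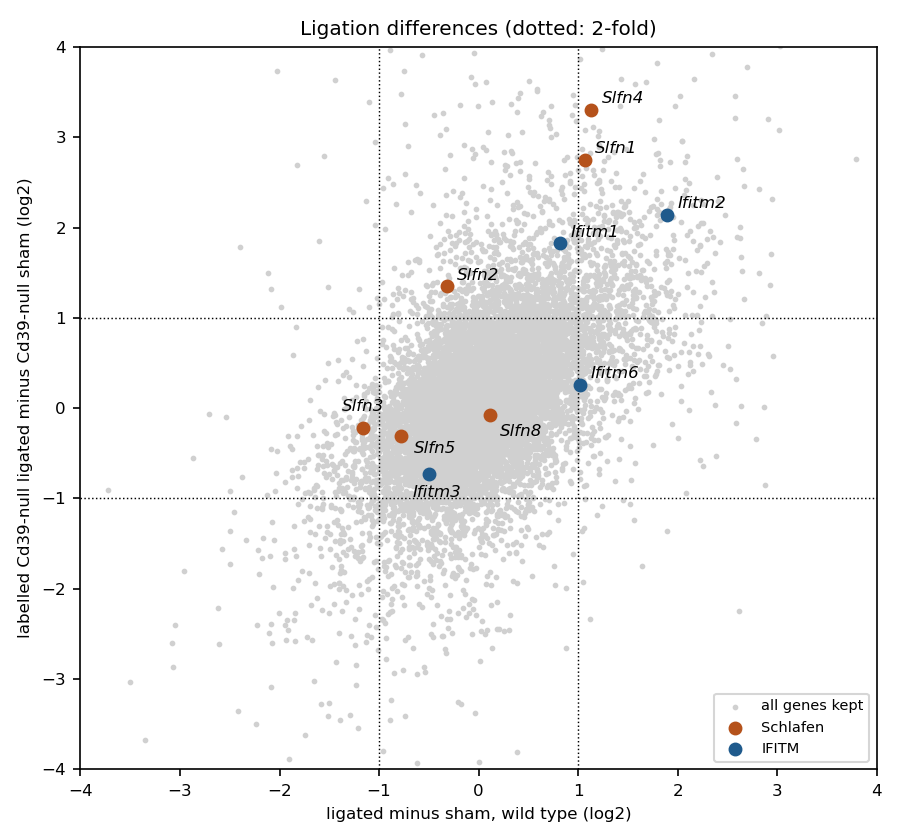
Ligated minus sham log2 difference in wild type (horizontal axis) against that of the ligated array labelled Cd39-null minus sham Cd39-null (vertical axis), for the genes kept (grey; 38 of 14115 lie beyond the axes) and the 10 members (coloured by family), with dotted lines at 2-fold. Slfn1, Slfn4 and Ifitm2 lie in the corner that is at least 2-fold higher on both axes, and Slfn2 lies at 1.35 on the vertical axis and -0.32 on the horizontal one.

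The third comparison was between the genotypes in sham veins. Ifitm6 was the 1 member at least 2-fold higher, against 2.95% of all genes, with a difference of 2.52 (5.72-fold, rank 28 from the highest), and Slfn5 was the 1 member at least 2-fold lower, against 3.54%, at -1.01. Slfn4, at 0.97, was just short of the mark and passed it under the other scalings (1.06 to 1.07), where Slfn5 no longer did (-0.93 to -0.90). Over all genes the share of higher among those 2-fold apart was 45.5% as deposited. It was 50.3% after quantile normalisation, 58.4% after loess normalisation and 60.3% after centring. Ifitm1 differed by 0.88 with the probe set used and by 1.58 with its other one. This comparison and the ligation comparison labelled Cd39-null share the sham Cd39-null array, so a high or low value there enters both with opposite signs.

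In the fourth comparison, between the ligated arrays of the 2 genotype labels, 4 members were at least 2-fold higher, against 3.61% of all genes, and 0 lower, against 2.66%. They were Slfn4 (3.14, 8.83-fold, rank 34 from the highest), Slfn1 (2.39, 5.23-fold), Ifitm1 (1.89, 3.72-fold) and Ifitm6 (1.76, 3.38-fold). All 4 kept the mark under the 3 other scalings. Ifitm2 (0.07) and Ifitm3 (0.12) were nearly level between the 2 ligated arrays. As deposited, Ifitm6 was the 1 member at least 2-fold higher in both genotype comparisons, which share no array, against 0.269% of all genes. Lower in both were 0 members, against 0.546%. Under the 3 other scalings Slfn4 also passed in both, at 1.06 to 1.07 in sham and 3.08 to 3.19 in ligated veins. With its other probe set Ifitm1 did so too, at 1.58 and 2.29.

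**Figure D4:**
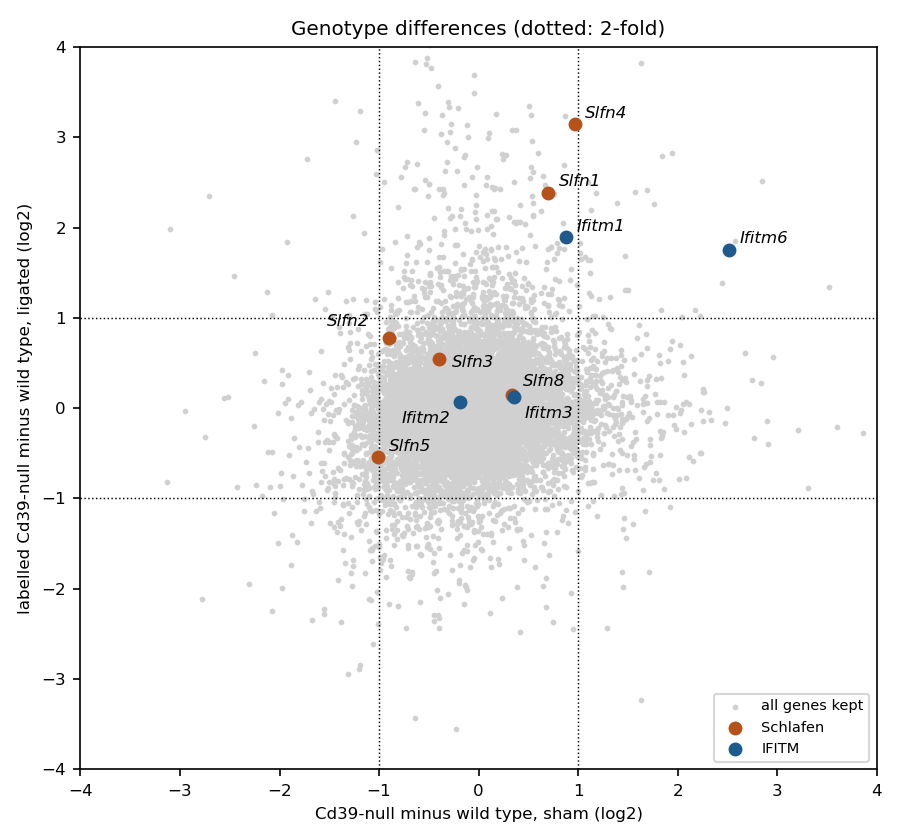
Cd39-null minus wild type log2 difference in sham veins (horizontal axis) against that in ligated veins (vertical axis, using the ligated array labelled Cd39-null), for the genes kept (grey; 25 of 14115 lie beyond the axes) and the 10 members (coloured by family), with dotted lines at 2-fold. With the deposited values and the probe sets used, Ifitm6 is at least 2-fold higher on both axes. Slfn4, Slfn1 and Ifitm1 are so on the vertical axis alone.

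Members that lie next to each other on the chromosome did not always run together. In RefSeq's order on chromosome 11 the family runs Slfn5, Slfn9, Slfn8, Slfn10-ps, Slfn2, Slfn1, Slfn4, Slfn3 and Slfn14, and on chromosome 7 Ifitm5, Ifitm2, Ifitm1, Ifitm3, Ifitm6 and Ifitm10. Likeness was measured as the distance between log2 values centred on each gene's mean over the 4 arrays, where 0 is the same pattern. The neighbours Slfn1 and Slfn4 were 0.65 apart, and the neighbours Slfn4 and Slfn3 were 3.57 apart. Across families, Slfn1 and Ifitm1 were 0.69 apart. The closest pairs of all were also across families, Slfn3 with Ifitm3 (0.62) and Slfn8 with Ifitm3 (0.63). Slfn3 lay mostly at background and Slfn8 had the narrowest range, so a small distance can also come from little change. On chromosome 7 the neighbours Ifitm1 and Ifitm2 were 1.65 apart.

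By the same distance over the 4 arrays, the genes most like Slfn4 outside both families were Clec4e (0.58), Clec5a (0.59) and Cd101 (0.63). Those most like Slfn1 were Cd14 (0.21), Lilra6 (0.27) and Tnfrsf26 (0.29). Those most like Ifitm1 were Cd300lb (0.35), Pygl (0.38) and Mctp2 (0.39), and those most like Ifitm6 were Cytip (0.66), Ripor2 (0.76) and Slpi (0.79). With 4 arrays such a list is a description of these pools only.

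Of 7 further Schlafen and IFITM genes looked for, Slfnl1, Ifitm5, Ifitm7 and Ifitm10 had a probe set of their own, and 0 of these were at least 2-fold apart in any of the 4 comparisons. Ifitm7 had the largest ligation differences of these in wild type, at -0.67, and read -0.48 in the pair labelled Cd39-null. Slfn9 and Slfn10-ps were read only by probe sets that also name Slfn8.

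Interferon-induced antiviral genes at large include effectors such as the RNA-binding Ifit proteins and the RNase-L-activating Oas enzymes. Of 29 such genes kept, 3 were at least 2-fold higher and 4 lower after ligation in wild type, beside 6.60% and 3.63% of all genes. In the pair labelled Cd39-null 2 were higher and 3 lower, beside 10.9% and 5.80%. The median differences were 0.26 and -0.16 beside -0.01 and 0.03 for all genes. Ifit3 (-2.07 and -2.61), Ifit3b (-2.24 and -3.50) and Ifit1 (-1.59 and -1.55) were lower in both. Oas2 was higher in wild type at 1.90 and read 0.78 in the pair labelled Cd39-null.

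Genes of the interferon-gamma response, 8 GTPases and chemokines kept, had median differences of -0.75 and -0.55 after ligation. At 2-fold 0 were higher and 1 lower in wild type, beside 6.60% and 3.63% of all genes. In the pair labelled Cd39-null 0 were higher and 3 lower, beside 10.9% and 5.80%. The immunity-related GTPase Iigp1 was the one at least 2-fold lower in both (-2.21 and -1.83). The chemokine Cxcl9 (-0.77 and -1.95) and the guanylate-binding protein gene Gbp5 (-0.88 and -1.84) passed 2-fold in the pair labelled Cd39-null.

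Of 17 genes of interferons, receptors and signal transduction kept, 3 were at least 2-fold higher after ligation in wild type and 5 in the pair labelled Cd39-null, beside 6.60% and 10.9% of all genes, and 0 were lower in either. Their medians were 0.54 and 0.60, and most of the 17 were under 2-fold in each comparison. The receptor chain Ifngr2 was higher in both (1.15 and 1.61). Ifnar2 read 1.33 and 0.89, the kinase Jak2 0.35 and 1.53, and the feedback inhibitor Socs3 0.68 and 1.42. The interferon gene Ifng read -0.15 and -0.06, and Ifnb1 was under the filter on low values.

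Markers of some leukocytes were higher in the comparisons in which several members were, and those of others were not. Of 14 neutrophil markers, 2 were at least 2-fold higher after ligation in wild type (Csf3r and Cxcr2), beside 6.60% of all genes, and 0 lower, with a median difference of -0.0015. In the pair labelled Cd39-null 6 were higher, beside 10.9%, and 1 was lower (Camp, -1.28), and 10 were higher on the ligated array labelled Cd39-null than in ligated wild type, beside 3.61%. Their median log2 signal was 3.22 in sham wild type, 3.56 in ligated wild type, 3.87 in sham Cd39-null, and 7.02 on the ligated array labelled Cd39-null. A median of levels can rest on different genes on each array. The median of the 14 markers' own differences in the pair labelled Cd39-null was smaller than that step, at 0.94. Summed on the linear scale they stood at 1260.1, 1110.8, 2641.0 and 4430.2. This sum rests mostly on the bright S100a8 and S100a9, at 9.30 and 8.76 in sham wild type. In wild type these differed by -0.66 and -0.02 after ligation, while Csf3r and Cxcr2 differed by 1.83 and 1.67. From 3 to 5 of the 14 markers lay at or under the olfactory background on each array.

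In sham veins, where Ifitm6 was higher and Slfn5 lower in Cd39-null, 5 of 14 neutrophil markers, 7 of 8 B cell markers, 5 of 9 T and NK cell markers and 6 of 8 adipocyte markers were at least 2-fold higher in Cd39-null, beside 2.95% of all genes. In the same comparison 7 of 9 smooth muscle markers, 5 of 13 endothelial markers and 4 of 7 platelet markers were at least 2-fold lower, beside 3.54%. The sham pools thus differed in markers of the vein wall, of fat and of blood cells as well as in these members.

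Of 13 monocyte and macrophage markers, 12 were at least 2-fold higher after ligation in wild type, beside 6.60% of all genes. In the pair labelled Cd39-null 11 were so, beside 10.9%, and the median differences were 2.17 and 2.22. Single markers differed between the ligated arrays. On the one labelled Cd39-null 5 of the 13 were at least 2-fold higher, beside 3.61%, and 2 lower, beside 2.66%. Ifitm2 differed by 0.07 in that comparison. The 13 markers' summed linear signal was 570.9 and 669.9 on the wild-type and Cd39-null sham arrays and 2515.5 and 3318.4 on the ligated ones. Of 7 platelet markers, 5 were at least 2-fold lower after ligation in wild type, beside 3.63% of all genes. In the pair labelled Cd39-null 7 were at least 2-fold higher, beside 10.9%. Platelet marker medians were 4.76, 3.24, 3.76 and 8.56 on the 4 arrays in the order above, and summed linear signals 831.3, 556.1, 231.1 and 2478.8. T and NK cell markers had medians of 2.89, 2.82, 4.28 and 3.51 and B cell markers 3.13, 2.40, 4.52 and 2.57, highest in sham Cd39-null, as were Slfn8 and Ifitm3 among the members. In the pair labelled Cd39-null 7 of 8 B cell markers and 3 of 9 T and NK cell markers were at least 2-fold lower, beside 5.80%. Slfn1, Slfn4 and Ifitm1 were higher in that pair. The part of these cell markers in the members' differences was not tested.

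**Figure D5:**
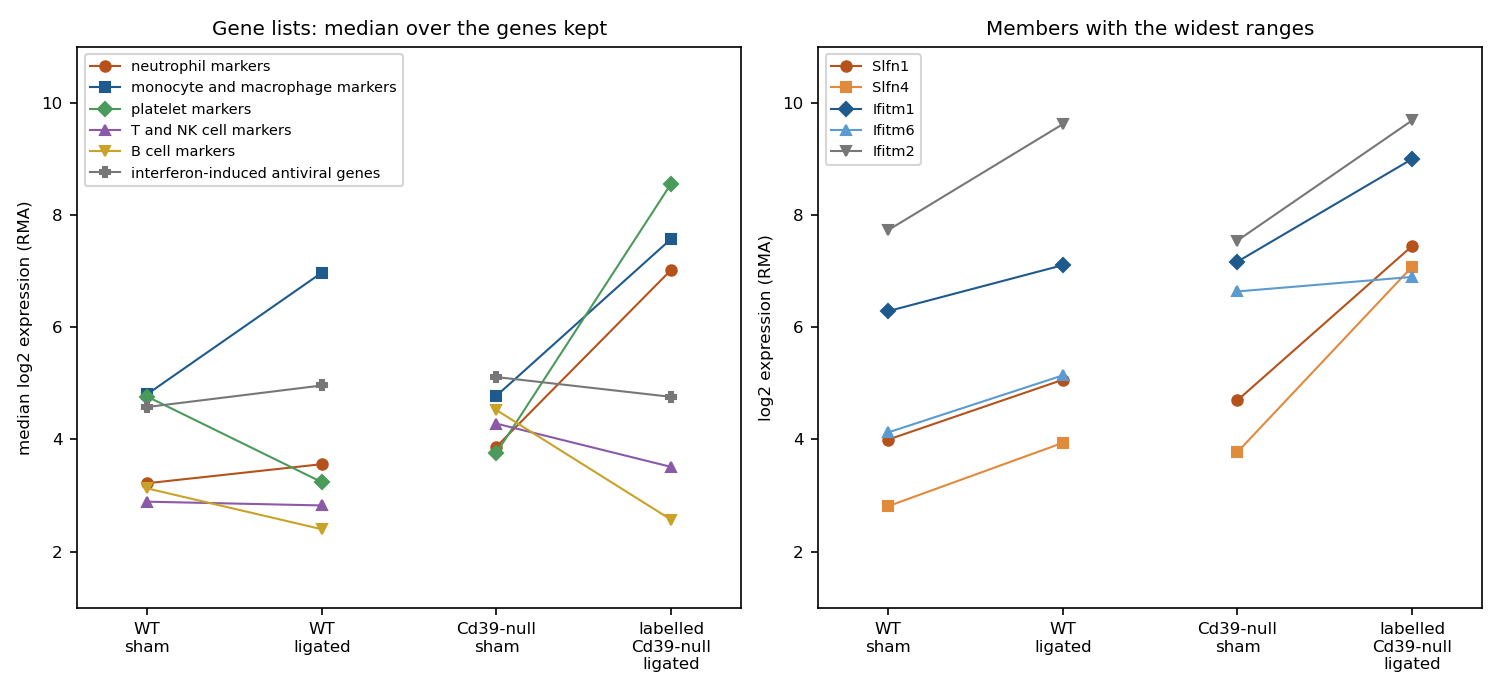
Left, median log2 signal (vertical axis) of 6 gene lists on the 4 arrays (horizontal axis), over the genes kept; right, log2 signal of the 5 members with the widest ranges on the same arrays, 1 point an array. Neutrophil, platelet and monocyte and macrophage medians reach 7.02, 8.56 and 7.58 on the ligated array labelled Cd39-null, where Slfn1, Slfn4, Ifitm1, Ifitm2 and Ifitm6 are also highest. A step between such medians can differ from the markers' own differences, whose median was 0.94 for neutrophil markers in the pair labelled Cd39-null.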

How the data were processed

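Total RNA of the vein was extracted with Trizol, amplified from 50 ng and 3 µg of cDNA was biotinylated, per the labels' protocols. The submitters' processing notes name RMA and oligo, with versions and genome build not given, and the deposited log2 values were used unchanged. RMA as a rule corrects background, equalises the distributions of arrays and summarises probes, so a shift in total RNA content is hidden. The deposited arrays were not fully equal, since their medians over all probe sets ran from 2.97 to 3.04. Quantile normalising these values moved the genes at least 2-fold higher in the pair labelled Cd39-null from 1537 to 1118. Arrays have no read depth.

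Of 35556 probe sets, 21218 had 1 gene symbol in the platform annotation, 1881 several and 12457 none. All 10 members matched RefSeq (GRCm38.p6) by Entrez identifier. Comparisons are differences of log2 values between single arrays, counted at 2-fold, with no test; the counting was checked on simulated data. Quantile and cyclic loess scalings of all probe sets used limma 3.58.1 in R 4.3.3. Centring used each array's median over the 14115 genes kept, not its median over all probe sets. Members and gene lists were chosen with earlier results of these data known. Besides members, up to 4 genes of a list with the largest mean ligation difference and the 3 genes nearest in pattern to the 2 widest-ranging members of each family were named, with Entpd1 and cell markers from lists. Ifng, Ifnb1, Camp, S100a8 and S100a9 were named after their values were seen. Protein sequences were not analysed here. Other Ifitm1 and Ifitm2 probe sets, values raised to background and sham wild type as reference were alternatives chosen after seeing the data.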

Additional observations from a re-analysis of the deposited data

Results flagged for a closer look

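Slfn2 differed in the direction of its ligation difference between the genotype labels, at -0.32 in wild type and 1.35 in the pair labelled Cd39-null, and its genotype difference was -0.90 in sham veins and 0.78 in ligated veins. Slfn3 had genotype differences of opposite sign, -0.40 in sham and 0.55 in ligated veins, mostly at background signal. Slfn8 had small ligation differences of opposite sign, 0.11 in wild type and -0.080 in the pair labelled Cd39-null, and Ifitm2 small genotype differences of opposite sign, -0.18 in sham and 0.067 in ligated veins. None of these differences between groups was tested, since each group is 1 array. With quantile normalisation the wild-type value of Slfn8 was -0.01 and the ligated value of Ifitm2 was -0.0012, so these small signs depend on the scaling. Slfn2 alone among the 4 genes passed 2-fold in a comparison with opposite signs.

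A probe set that names both Slfn8 and Slfn9, and therefore entered no gene's value, was higher after ligation by 1.21 in wild type and by 1.76 in the pair labelled Cd39-null. It read 3.16, 4.38, 3.00 and 4.76 in sham and ligated wild type and sham Cd39-null and on the ligated array labelled Cd39-null. The probe set of Slfn8 alone had a range of 0.34 over the same arrays, and the one that names Slfn8 and Slfn10-ps differed by 0.20 and 0.53 after ligation.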

How the results depend on the processing

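Of 4 members at least 2-fold higher after ligation in wild type, 2 were so under quantile normalisation, cyclic loess or centring of arrays, and 1 at 3-fold. The 1 lower member became 2 at 1.5-fold and 0 at 3-fold or with values raised to the olfactory background. In the pair labelled Cd39-null the 0 lower members became 1 at 1.5-fold or with sham wild type as reference. For Cd39-null against wild type in sham veins, the 1 higher member became 2 under quantile normalisation, cyclic loess, centring or the mean of all probe sets, and 4 at 1.5-fold, and the 1 lower member became 0 under the 3 scalings and at 3-fold, and 2 at 1.5-fold. The cause of these shifts was not tested. Centring the arrays moved the median of all genes in the pair labelled Cd39-null from 0.03 to -0.10. No difference of at least 2-fold changed sign under any alternative run. Slfn3 and, in sham wild type, Slfn4 are limited by signal near background. No paired analysis was possible because each group has 1 array and the labels give no replicate numbers. Leaving out a replicate was not possible for the same reason.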
